A study of Mus musculus with 8 samples.

Results

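Immature neuron and oligodendrocyte progenitor genes were examined in the brains of young adult and aged mice. The 10 members were chosen by gene symbol from the 22430 genes of the raw count table, and each symbol matched 1 Ensembl gene. They are 5 genes of immature neurons (Dcx, Sox4, Sox11, Igfbpl1 and Dlx1) and 5 genes of the oligodendrocyte lineage (Pdgfra, Olig1, Olig2, Sox10 and Gpr17). Libraries were made from a brain hemisphere of 8 male C57Bl/6JRj mice, an inbred strain, 4 of them young adults (6m) and 4 aged (24m), with 1 library per mouse. The study's methods describe direct RNA sequencing on an ONT MinION, in which native RNA molecules are read, whereas the sample labels name a directional poly(A) kit, and the methods were followed here. No treatment or genetic change separates the ages. RNA of the whole hemisphere was pooled, so progenitor niches were not dissected.

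New neurons of the adult mouse brain arise mainly in the subventricular zone and the dentate gyrus, and doublecortin (Dcx) and the SoxC factors Sox4 and Sox11 mark the young cells there. Oligodendrocyte progenitors divide throughout adult life under PDGF signalling, which they receive through the receptor Pdgfra, and pass through a Gpr17-positive stage before they make myelin. Olig1, Olig2 and Sox10 are transcription factors of the whole lineage, present in progenitors and in myelinating cells alike, so their RNA does not mark progenitors alone.

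Counts on genes summed to 843706, 573152, 838483 and 818963 in 6m replicates 1 to 4. In 24m replicates 1 to 4 they summed to 660398, 903595, 742951 and 1255424. A limit of 3 counts was used in each library, the most that a count of 0 allows, and it corresponded to between 2.3 and 5.42 CPM (the count relative to the TMM-scaled size of its library). A gene with at most 3 counts in every library of an age was called at the limit at that age. Such limits and counting intervals cover counting error only.

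Of the 10 members, 5 were at the limit in every library of both ages, namely Dcx, Sox11, Igfbpl1, Pdgfra and Gpr17. Sox4 exceeded 3 counts in some libraries of each age but stayed under the filter for testing, a mean count over 5. The other 4, Dlx1, Olig1, Olig2 and Sox10, were tested together with all 9375 genes that passed. Genes with an adjusted p of at most 0.05 (edgeR quasi-likelihood test, adjusted by Benjamini-Hochberg over all of them) and an absolute log2FC of at least 0.58 were called changed. Of the 4 tested members, 1 was changed, Sox10, which was higher at 24m, where 14.5% of all tested genes were changed and 10.3% were changed and higher. With the adjusted p alone, 2 of the 4 passed, Sox10 and Olig1, beside 21.7% of all tested genes. The same 2 members had CPM that did not overlap between the ages, as did 21.1% of all tested genes.

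The immature neuron members were barely sampled at this depth. Dcx (ENSMUSG00000031285, chromosome X, 142638838 to 142716307 on the minus strand of GRCm39), which encodes a microtubule-binding protein of migrating neuroblasts, had 0 counts in all 8 libraries. Over the 4 libraries of an age together, a count of 0 allows 3 counts, or 1.01 CPM at 6m and 0.81 CPM at 24m, as a one-sided limit. The upper bounds of the exact two-sided 95% counting intervals were 1.24 and 0.996 CPM. A difference in Dcx between the ages was therefore not detectable at this depth, and its absence is not shown.

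Sox11 (chromosome 12, 27384263 to 27392573), a SoxC transcription factor, had 0, 0, 2 and 1 counts in 6m replicates 1 to 4 and 1, 0, 1 and 3 counts in 24m replicates 1 to 4. Igfbpl1 (chromosome 4, 45809254 to 45826923), an IGF-binding-like gene of neuroblasts, had 1, 0, 0 and 0 counts at 6m and 2, 1, 3 and 3 counts at 24m. All of these values lie at or under the limit, so no fold change is given for either gene. The Igfbpl1 reads were seen in 1 of 4 libraries at 6m and in 4 of 4 at 24m, with 1 and 9 reads in all. With a total count over 5 as the filter, the adjusted p of edgeR was 0.145 for Igfbpl1 and 0.866 for Sox11, and with no filter it was 0.165 and 0.874. Igfbpl1 shares 211 exon bases with Gm69699 on the opposite strand.

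Sox4 (ENSMUSG00000076431, chromosome 13, 29132902 to 29137696), the other SoxC factor among the members, had 3, 3, 8 and 6 counts in 6m replicates 1 to 4 and 4, 1, 2 and 4 counts in 24m replicates 1 to 4. The highest values came from 6m replicates 3 and 4, and the ages overlapped. Summed over the libraries, 20 and 11 counts gave a 24m/6m ratio of 0.44 on TMM-scaled library sizes, with an exact 95% counting interval from 0.191 to 0.964. On the unscaled totals the ratio was 0.475, with an interval from 0.205 to 1.04, so the upper bound lay on either side of 1 depending on the scaling. Those intervals leave out the spread between mice. With a total count over 5 as the filter, Sox4 entered the edgeR test, with a log2FC of -1.12 ± 0.561 (SE, n = 4 per age) and an adjusted p of 0.193, which was 0.226 with no filter. Sox4 shares 907 exon bases with A330102I10Rik on the opposite strand.

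**Figure D1:**
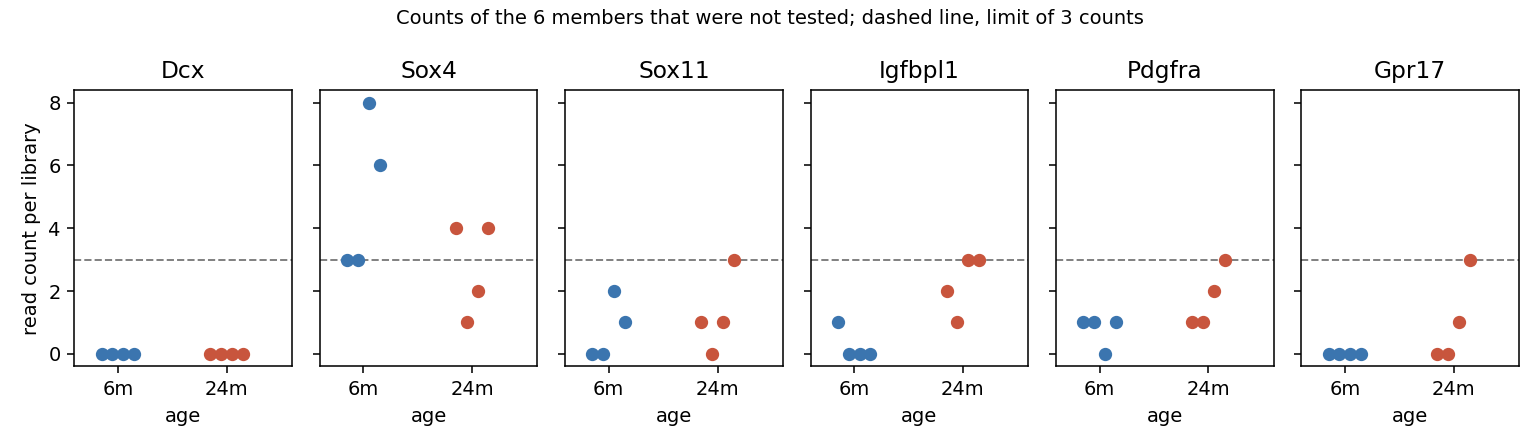
Read counts per library (y axis) of the 6 members that were not tested, in the 4 libraries at 6m (blue) and the 4 at 24m (red), with a dashed line at the limit of 3 counts. Dcx sits at 0 throughout, and of these genes only Sox4, with up to 8 counts, rises above the line.

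Dlx1 (ENSMUSG00000041911, chromosome 2, 71358457 to 71364325) encodes a homeobox factor of neuroblasts bound for the olfactory bulb and of GABAergic interneurons. Dlx1 was the only immature neuron member to pass the main filter, a mean count over 5. It measured 16, 25.3, 23.6 and 26.4 CPM in 6m replicates 1 to 4 and 32, 17.7, 15.4 and 21.5 CPM in 24m replicates 1 to 4. The highest and the lowest of the 8 libraries were both aged, and the ages overlapped. Its log2FC was -0.10 ± 0.268 (SE, n = 4 per age), with a 95% interval from -0.65 to 0.45 (edgeR, adjusted p = 0.841). With library sizes alone it was 0.01, where the median over all tested genes was 0.102, and relative to that median it was -0.09. Dlx1 shares 3251 exon bases with Dlx1as on the opposite strand, and the strand setting of the counting was not given in the sources used here.

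Dlx1 held 74.7% of the 194 reads of the immature neuron members, so their summed level mostly follows Dlx1. The sum was 20.9, 30.7, 36.1 and 35.2 CPM in 6m replicates 1 to 4 and 42.7, 19.8, 23 and 29.1 CPM in 24m replicates 1 to 4. The ages overlapped, and the 24m/6m ratio of the means was 0.932. Its direction rested on single libraries, since the ratio was 0.78 without 24m replicate 1 and 1.03 without 24m replicate 2. Without Dlx1 the sum rested on 49 reads and the ratio was 0.89, with a mean of 7.02 ± 3.59 CPM in the aged and 7.9 ± 3.49 CPM in the young adult libraries (SD, n = 4 per age). In bulk RNA, fewer cells of a type and less RNA per cell cannot be told apart.

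Sox10 and Olig1 were the members that stood apart between the ages. The 250 bases before the start of the canonical Olig1 transcript in GRCm39 are shown here, as Olig1 had the most reads of all members. The window was searched on both strands for CANNTG (the E-box, a motif bound by factors of the Olig family) and ACAANG (a motif of SOX factors), and capitals mark the match.
Olig1, chr16:91066410-91066659, plus strand: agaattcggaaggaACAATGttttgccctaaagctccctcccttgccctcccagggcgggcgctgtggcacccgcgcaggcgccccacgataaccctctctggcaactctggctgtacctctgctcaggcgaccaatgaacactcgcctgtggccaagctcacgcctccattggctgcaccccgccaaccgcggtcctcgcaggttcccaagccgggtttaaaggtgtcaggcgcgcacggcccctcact
The Olig1 window held 1 SOX match and 0 E-boxes. Of the 21770 windows of this length before protein-coding genes, 34.9% held a SOX match and 64.8% an E-box, so a match of either kind is common. GC made up 63.6% of the Olig1 window, beside a median of 53.2% over all windows.

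Sox10 (ENSMUSG00000033006, chromosome 15, 79039108 to 79049469), the SOX factor that drives myelin gene transcription, measured 35.7, 43.4, 29.9 and 41.4 CPM in 6m replicates 1 to 4 and 71.6, 57.2, 70.4 and 59.1 CPM in 24m replicates 1 to 4. Every aged library lay above every young adult library. The mean was 64.6 ± 7.5 CPM in the aged against 37.6 ± 6.1 CPM in the young adult libraries (SD, n = 4 per age). Its log2FC of 0.77 ± 0.173 (SE), a 1.71-fold higher level with a 95% interval of the log2FC from 0.42 to 1.13, was called changed (edgeR quasi-likelihood test, adjusted p = 0.00237). Sox10 was called changed under every alternative run, with adjusted p between 0.000698 and 0.0133 under edgeR and DESeq2. No annotated gene overlaps its exons.

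Olig1 (ENSMUSG00000046160, chromosome 16, 91066660 to 91068821), a basic helix-loop-helix factor needed for oligodendrocyte maturation, measured 87.4, 83.2, 77.2 and 108 CPM in 6m replicates 1 to 4 and 120, 129, 157 and 127 CPM in 24m replicates 1 to 4. All aged libraries again exceeded all young adult libraries, with the gap narrowest between 6m replicate 4 and 24m replicate 1. The log2FC was 0.5799 with an SE of 0.142 (n = 4 per age), and the adjusted p was 0.0049 (edgeR quasi-likelihood test, Benjamini-Hochberg). Olig1 thus passed the adjusted p and narrowly missed the fold minimum of 0.58, so its side of that minimum is not settled by these data. Olig1 shares 228 exon bases with Gm41492 and 157 with Gm15966 on the opposite strand, and reads of these genes cannot be told apart from its own unless strand was used. It was called changed with DESeq2 on raw counts, with RLE or upper quartile factors and with the other filters. That also held without 6m replicate 4 (log2FC 0.70), 24m replicate 1 (0.62), 24m replicate 2 (0.60) or 24m replicate 4 (0.62). Olig1 was not called with DESeq2 on quantile-normalized counts (0.57) or with a replicate block (0.58). Nor was it called without 6m replicate 1 (0.58), 6m replicate 2 (0.56), 6m replicate 3 (0.52) or 24m replicate 3 (0.50). Its log2FC lay between 0.50 and 0.70 and its adjusted p between 0.00123 and 0.0263 over all alternatives run.

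Olig2 (ENSMUSG00000039830, chromosome 16, 91019435 to 91025567), which specifies the lineage and lies 41092 bases from Olig1, had far fewer reads. It shares 285 exon bases with Gm49614 on the opposite strand. It measured 16, 9.04, 8.71 and 21.3 CPM in 6m replicates 1 to 4 and 7.62, 17.7, 25.6 and 23 CPM in 24m replicates 1 to 4. The lowest library was 24m replicate 1, with 5 counts, and the ages overlapped. The log2FC of 0.44 ± 0.341 (SE, n = 4 per age) did not pass the test (edgeR, adjusted p = 0.386), and its 95% interval from -0.26 to 1.14 also holds the values measured for Olig1 and Sox10. Whether Olig2 differs from those genes in its change with age was not tested.

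**Figure D2:**
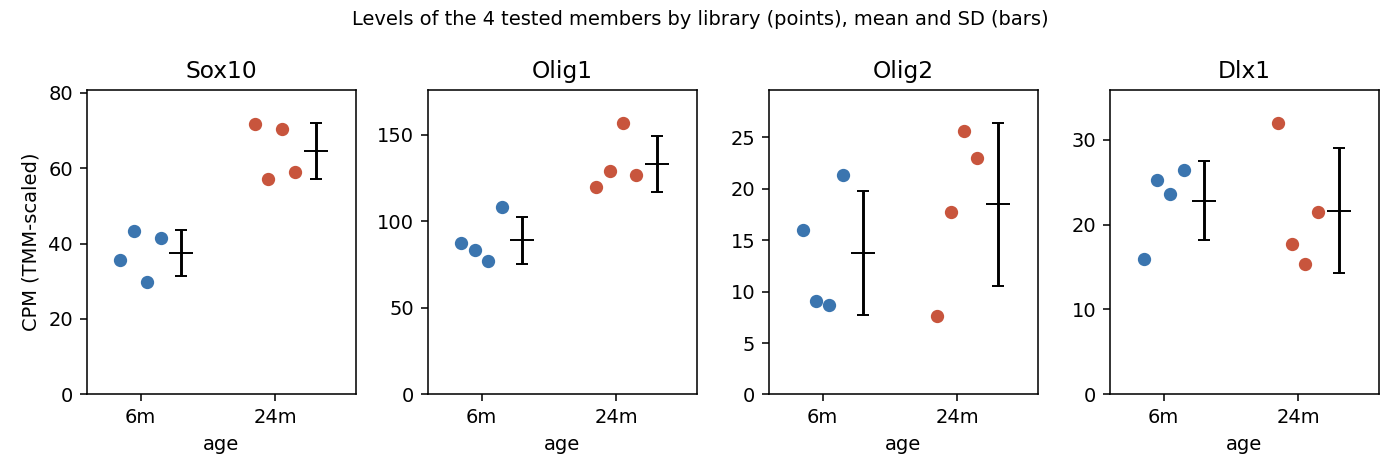
CPM on TMM-scaled library sizes (y axis) of the 4 tested members in each library at 6m (blue points) and 24m (red points), with the mean and SD as black bars. The aged libraries lie above all young adult libraries for Sox10 (57.2 to 71.6 against 29.9 to 43.4 CPM) and Olig1, whereas the ages overlap for Olig2 and Dlx1.

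The members that mark progenitors and committed precursors more closely were at the limit. Pdgfra (chromosome 5, 75311994 to 75358876), the PDGF receptor of progenitors, had 1, 1, 0 and 1 counts in 6m replicates 1 to 4 and 1, 1, 2 and 3 counts in 24m replicates 1 to 4. Gpr17 (chromosome 18, 32076050 to 32082888), a receptor of committed precursors, had 0 counts in every 6m library and 0, 0, 1 and 3 counts in 24m replicates 1 to 4. No fold change is given for either, and a difference was not detectable at this depth. Pdgfra entered the edgeR test with a total count over 5 as the filter, with an adjusted p of 0.638, or 0.647 with no filter, and Gpr17 with no filter alone, with an adjusted p of 0.231. Gpr17 shares 320 exon bases with Lims2 on the opposite strand, and Pdgfra shares 456 with Gm42802 and 168 with Gm42803, also on the opposite strand. Pdgfra further shares 74 exon bases with Mir7025 on the same strand.

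Summed over the 5 oligodendrocyte lineage members, levels were 140, 137, 116 and 172 CPM in 6m replicates 1 to 4 and 201, 205, 257 and 214 CPM in 24m replicates 1 to 4. The ages did not overlap, and the 24m/6m ratio of the means was 1.55. Olig1 gave 61.6% and Sox10 28% of the 1229 reads, so this sum describes the lineage factors and not the progenitor markers.

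Because Olig1 and Sox10 are also active in myelinating cells, the list of 18 mature oligodendrocyte genes was read beside them. All 18 were tested, and none was at the limit. Of these, 2 were changed and higher at 24m, among them Mbp (log2FC 0.72), which encodes a major myelin protein and whose ages overlapped (846 to 1350 CPM at 6m, 1310 to 1990 CPM at 24m). Over all tested genes 10.3% were changed and higher in this edgeR fit, so 2 of 18 is near the background there. DESeq2 called 2 of the 18 on raw counts and 3 on quantile-normalized counts, all of them higher. Of all 9375 tested genes, those fits called 629 and 547 higher. With the edgeR adjusted p alone 7 of the 18 passed, all of them higher, beside 1155 of all 9375 tested genes that passed and were higher. In either direction 21.7% of all tested genes passed. The median log2FC of the list was 0.34, against -0.003 over all tested genes. Its summed level, in which Mbp was the most abundant gene, was 5080, 4310, 4680 and 5250 CPM in 6m replicates 1 to 4 and 6360, 5800, 6310 and 5560 CPM in 24m replicates 1 to 4. The ages did not overlap in this sum either, with a 24m/6m ratio of 1.24, or 1.13 without Mbp.

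Per 1000 reads of the mature list, a ratio computed after these values had been seen, Sox10 had 7.85 ± 1.61 reads at 6m and 10.7 ± 0.642 at 24m (SD, n = 4 per age). The log2 ratio of these means was 0.45, and the ages overlapped. For Olig1 the same quantity was 18.4 ± 1.89 reads at 6m and 22.3 ± 2.5 at 24m, a log2 ratio of 0.27, again with overlap. The part of mature oligodendrocyte RNA in the higher Sox10 and Olig1 levels was not tested further.

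**Figure D3:**
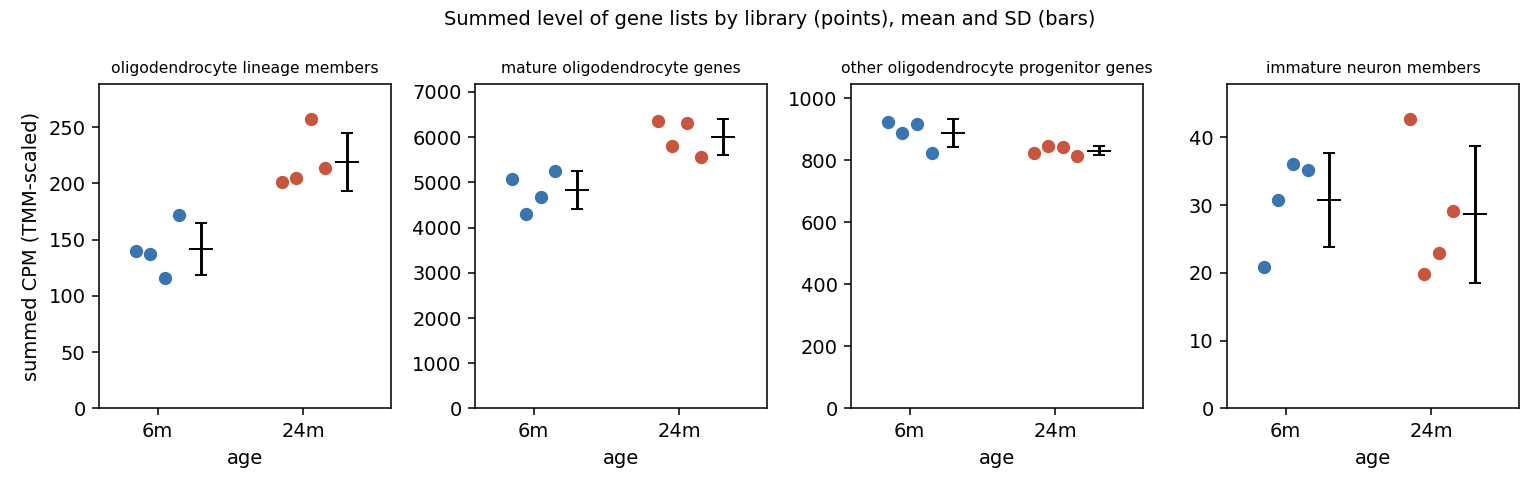
Summed CPM (y axis) of the oligodendrocyte lineage members, the mature oligodendrocyte genes, the other oligodendrocyte progenitor genes and the immature neuron members in each library at 6m (blue) and 24m (red), with the mean and SD as black bars. The first pair of lists lies higher in all aged libraries, with 24m/6m ratios of 1.55 and 1.24, while the last pair overlaps between the ages, with ratios of 0.936 and 0.932, the last of which was 1.03 without 24m replicate 2.

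No other progenitor gene was called changed among those tested. Of 16 such genes, 12 were tested and 0 were changed with edgeR or with DESeq2, while 1 had an unadjusted p under 0.05, and the median log2FC was 0.03. At least 21.7% of all tested genes had an unadjusted p under 0.05, as that share passed the adjusted p. The best sampled of them were the proteoglycans Cspg5 (log2FC 0.02 ± 0.092, SE, edgeR adjusted p = 0.883) and Bcan (log2FC -0.29 ± 0.108, edgeR adjusted p = 0.0538). The summed level of the list was 830 ± 15 CPM in the aged and 887 ± 45 CPM in the young adult libraries (SD, n = 4 per age), with overlap. Cspg5 held 2540 and Bcan 2059 of its 5701 reads, so the sum mostly follows these 2 genes. Whether the list differs from Sox10 was not tested. Of the untested genes of the list, 3 were at the limit in every library. The untested Lhfpl3, named after its values were seen, had 0 counts in every 6m library. It had 0, 8, 1 and 13 counts in 24m replicates 1 to 4.

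Of 12 genes of committed precursors, 7 were tested and 0 were changed with edgeR or DESeq2. An unadjusted p under 0.05 was found for 3 of the 7, beside at least 21.7% of all tested genes. Bcas1 (log2FC 0.47, edgeR adjusted p = 0.011) and Sirt2 (log2FC 0.34, edgeR adjusted p = 0.0298) passed the adjusted p under the fold minimum. The median log2FC of the list was 0.34. Its summed level, led by Sirt2, was 436, 392, 452 and 429 CPM in 6m replicates 1 to 4. In 24m replicates 1 to 4 it was 492, 514, 514 and 497 CPM, higher in every aged library, a 24m/6m ratio of 1.18. Sirt2 held 1189 and Bcas1 765 of the 3143 reads, so the sum mostly follows these genes. The untested Enpp6, Itpr2, Bmp4, Zfp488 and Zfp536 had 15, 7, 6, 2 and 16 counts at 6m. At 24m they had 19, 6, 3, 2 and 5 counts.

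Among PDGF ligands and transcription factor partners of the members, 11 of 18 genes were tested and 1 was changed, Id4 (log2FC 0.69 ± 0.184, SE, edgeR adjusted p = 0.00902), which encodes an inhibitor of helix-loop-helix factors. Over all tested genes 10.3% were changed and higher. The Id4 call was lost without 24m replicate 4 and with DESeq2 on quantile-normalized counts. The median log2FC was 0.20, and the summed level, led by Id2, did not overlap between the ages, with a 24m/6m ratio of 1.17. Of the 11, 6 had a log2FC above 0 and 7 had an unadjusted p under 0.05, beside at least 21.7% of all tested genes. The exact share over all tested genes is not given here. Among these 7, Tcf4 (log2FC -0.80) and Hes1 (-0.58), named after their values were seen, were lower without overlap. Neither passed the edgeR adjusted p.

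The wider immature neuron list gave more reads than the members. Of its 24 genes, 23 were in the table, 11 were tested and 1 was changed, Nrep, a gene of growing neurites (log2FC 1.09 ± 0.253, SE, edgeR adjusted p = 0.00332). Over all tested genes 10.3% were changed and higher. Tubb3, a neuronal tubulin gene named after its values were seen, passed the adjusted p in the other direction and under the fold minimum (log2FC -0.30, edgeR adjusted p = 0.0353). Of the 11, 5 had a log2FC below 0, the median was 0.05, and the summed level overlapped between the ages with a 24m/6m ratio of 0.944. Stmn1 held 6917 and Tubb3 5527 of the 19780 reads, so this sum mostly follows these genes. Of the untested genes of the list, 5 were at the limit in every library, namely Sp8, Eomes, St8sia2, St8sia4 and Draxin. Among 11 partners of Dcx in microtubule binding and migration, 10 were tested and 1 was changed and lower at 24m, Pafah1b1, a regulator of dynein (log2FC -0.63 ± 0.228, SE, edgeR adjusted p = 0.0491), where 4.17% of all tested genes were changed and lower. The ages overlapped for Pafah1b1, neither DESeq2 fit called it, and the edgeR call was kept only without 6m replicate 1 or 6m replicate 2 among the libraries left out in turn. The median log2FC of the list was 0.14, while its summed level, led by Tuba1a (log2FC -0.37, edgeR adjusted p = 0.00265, under the fold minimum), was 3290, 3430, 3430 and 3380 CPM in 6m replicates 1 to 4 and 2770, 2470, 2760 and 2750 CPM in 24m replicates 1 to 4. That sum was lower in every aged library, with a 24m/6m ratio of 0.795. Tuba1a is named as the most abundant gene, after its values were seen. Of 17 genes of neural stem and cycling cells, 6 were tested and 0 were changed with edgeR or DESeq2. An unadjusted p under 0.05 was found for 1 of the 6, beside at least 21.7% of all tested genes. The best sampled of these were Hopx (log2FC 0.38, edgeR adjusted p = 0.0677) and Pcna (log2FC 0.20, edgeR adjusted p = 0.465). The summed level of this list, led by Hopx, was between 192 and 207 CPM at 6m. It was 215, 221, 216 and 301 CPM in 24m replicates 1 to 4, higher in every aged library with a 24m/6m ratio of 1.19. Hopx held 695 and Pcna 332 of the 1512 reads, so the sum mostly follows these genes. At the limit in every library were 6 genes of the list, Mki67, Top2a, Cdk1, Birc5, Ube2c and Mcm3.

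Markers of other cells in the hemisphere also moved with age. All 5 neuronal markers and all 5 cerebellar granule cell markers were tested. Of the neuronal markers, 2 were changed and higher at 24m, Snap25 (log2FC 0.77) and Slc17a7 (0.58). Of the cerebellar markers, 3 were, namely Cbln3 (1.76), Zic2 (1.27) and Cbln1 (0.76), where 10.3% of all tested genes were changed and higher. With the edgeR adjusted p alone, all 5 neuronal and 3 cerebellar markers passed and were higher. So did 1155 of all 9375 tested genes. Neither DESeq2 fit called Snap25 or Cbln1, whose ages overlapped, and Cbln3 was not called by DESeq2 on quantile-normalized counts. Without 6m replicate 2 or 24m replicate 2, edgeR called neither Cbln1 nor Slc17a7, and without 24m replicate 3 it did not call Slc17a7. The summed level of the cerebellar markers, led by Cbln1, was 159, 57.9, 115 and 124 CPM in 6m replicates 1 to 4 and 218, 247, 215 and 188 CPM in 24m replicates 1 to 4. That of the neuronal markers, led by Eno2, was 1600, 1510, 1680 and 1630 CPM at 6m and 2190, 2480, 2570 and 2130 CPM at 24m. Both sums were higher in all aged libraries, like those of Sox10 and Olig1, and the part of differing tissue composition in the members' values was not tested.

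The remaining marker lists are given by their called genes, median and summed level. Of 6 tested astrocyte markers, Gfap (log2FC 1.94), Slc1a3 (1.65) and Gja1 (1.42) were higher and Slc1a2 (-0.59) was lower, the last not called by either DESeq2 fit nor without 6m replicate 4, 24m replicate 3 or 24m replicate 4. Of these 6, 3 had a log2FC below 0, the median was 0.64, and the summed level, led by Aldoc, overlapped between the ages with a 24m/6m ratio of 1. Of 3 tested microglia markers, Tmem119 (log2FC 1.03) was higher, a call lost with both DESeq2 fits and without 6m replicate 3 or 24m replicate 3. The median of the 3 was 0.44 and the summed level overlapped, with a ratio of 1.14. Of 8 tested GABAergic interneuron markers, which share cells with Dlx1, Gad1 (log2FC 0.75) was higher, with overlap between the ages, and was not called by DESeq2 on quantile-normalized counts or without 24m replicate 4. Of these 8 markers, 4 had a log2FC below 0. Under the fold minimum, the adjusted p was also passed by Sst (log2FC -0.27, edgeR adjusted p = 0.0283) and, in the other direction, by Slc32a1 (log2FC 0.34, edgeR adjusted p = 0.0435), both named after their values were seen. The median log2FC of the list was 0.10 and the 24m/6m ratio of its summed level was 0.958. Of 6 tested olfactory bulb markers, where Dlx1-positive neuroblasts end their migration, Synpr (log2FC 1.05) was higher and Doc2g (-1.54) was lower. Both overlapped between the ages, with Doc2g between 9.85 and 62.2 CPM at 6m and between 4.16 and 25.3 CPM at 24m, and neither DESeq2 fit called them. The edgeR call was lost for Synpr without 6m replicate 1 and for Doc2g without 6m replicate 3 or 24m replicate 2. The median of the 6 was 0.75, while the summed level overlapped with a ratio of 0.98. Of 3 tested fibroblast and mural cell markers, a group that includes other cells with Pdgfra, 0 were changed with edgeR or DESeq2. An unadjusted p under 0.05 was found for 1 of the 3, beside at least 21.7% of all tested genes. The log2FC was -0.40 for Vtn and 0.01 for Dcn, with a median of -0.06. The summed level overlapped, with a ratio of 0.815. Over the 14 lists other than the members, 18 of 111 tested genes (16.2%) were changed, 15 higher and 3 lower, beside 14.5% of all tested genes. With DESeq2, 11 were higher and 0 lower on raw counts, and 9 and 0 on quantile-normalized counts, while edgeR with library sizes alone gave 24 and 1.

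**Figure D4:**
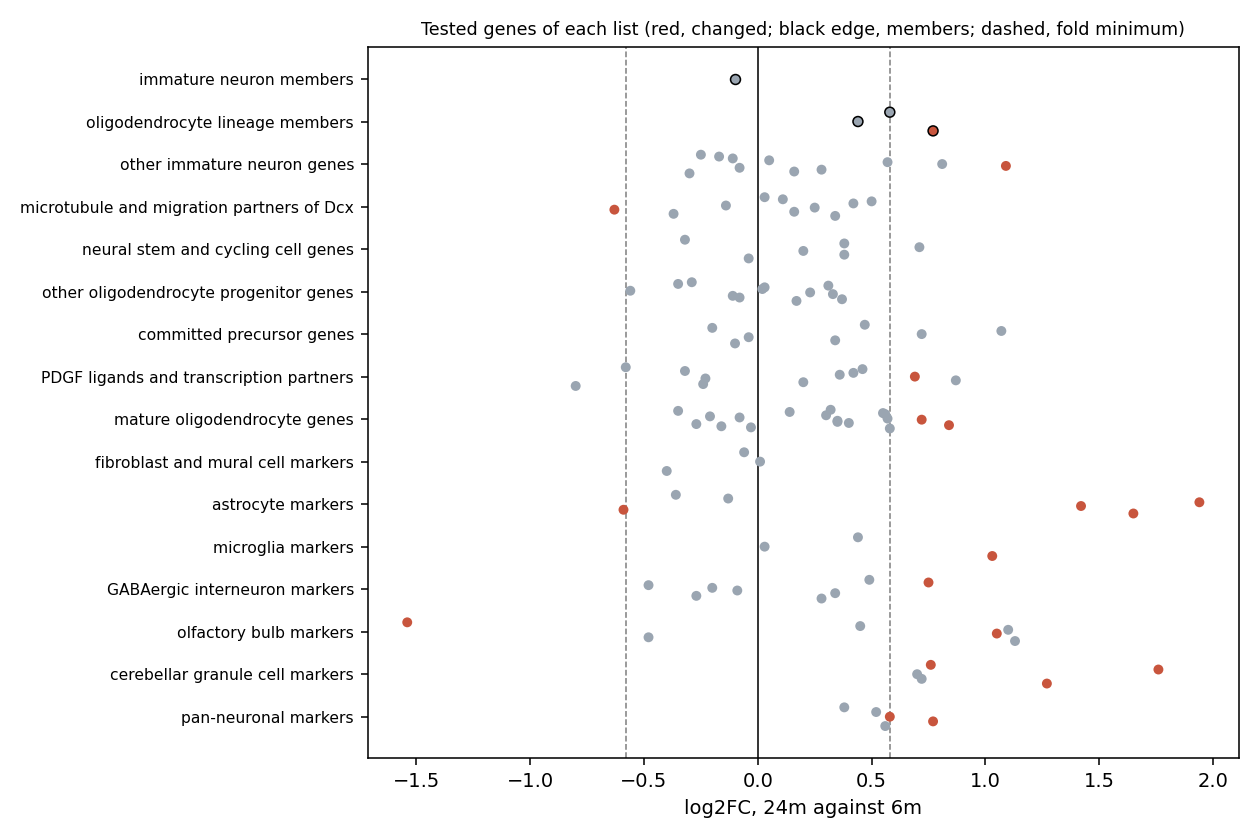
The log2FC of 24m against 6m (x axis) for each tested gene of the 16 lists (y axis), with changed genes in red, members outlined in black and dashed lines at the fold minimum of 0.58 in either direction. Sox10 is the changed member, Olig1 sits on the line, and the other progenitor genes lie on both sides of 0, with a median of 0.03.

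Some genes outside the lists had a pattern close to that of the member sums over the 8 libraries. For the oligodendrocyte lineage sum, the smallest root mean square differences of centred log2 CPM among 5162 candidates were those of Prex1 (0.0731), Txndc12 (0.0902) and Thy1 (0.111). For the immature neuron sum they were those of Kazald1 (0.147), Apex1 (0.169) and Acta1 (0.174). These are descriptions of 8 libraries only.

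**Figure D5:**
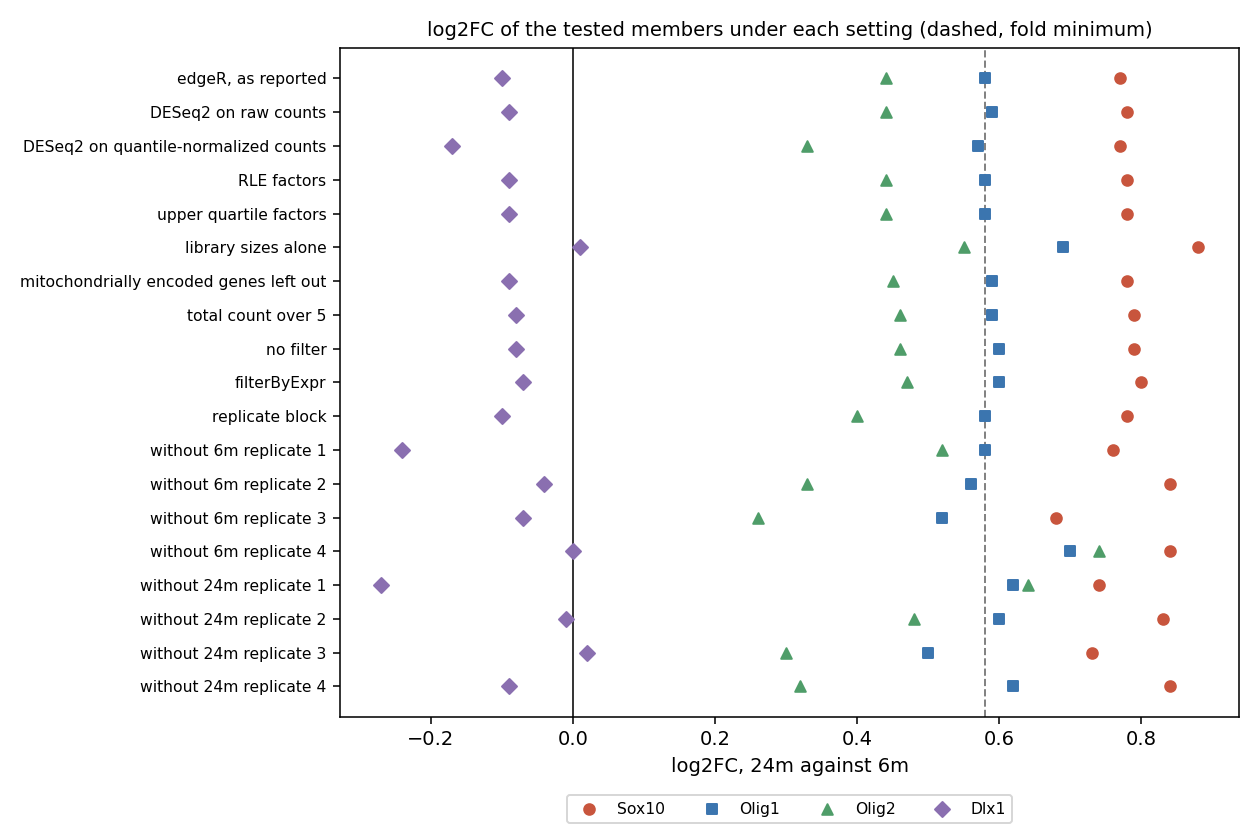
The log2FC of 24m against 6m (x axis) of Sox10 (circles), Olig1 (squares), Olig2 (triangles) and Dlx1 (diamonds) under each setting (y axis), with a dashed line at the fold minimum of 0.58. Sox10 stays between 0.68 and 0.88, Olig1 lies on either side of the line between 0.50 and 0.70, and Dlx1 lies near 0 with values of both signs.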

How the data were processed

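Raw counts were used as deposited. To make them, the authors mapped direct RNA reads to GRCm39 with minimap2 (version 2.24 in the submitters' processing notes) and assigned them to Ensembl genes with featureCounts. Strand, overlap and multi-mapping settings are not given in the sources used here. Of 22430 genes, 22281 matched GENCODE vM39, which gave symbols and positions.

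The ages were compared by the quasi-likelihood test of edgeR 4.0.16 in R 4.3.3, for genes whose mean count exceeded 5. The model held age alone, library sizes were scaled by TMM, and p was adjusted over every tested gene. Standard errors come from the log2FC and the F statistic, and 95% intervals use the fitted degrees of freedom. DESeq2 1.42.0 (also after quantile normalization by limma 3.58.1), other scalings and filters, a replicate block and leaving out each library were the alternatives. The tests were also run on simulated counts as a check.

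The members and lists were chosen with earlier results of these data known. Named genes were all members; in each other list the changed genes, at most the 4 with the largest absolute log2FC, or, where none changed, the 2 tested genes with the highest mean count; and the 3 genes with a mean count of at least 20 nearest to each member sum in log2 CPM (prior count 2). A gene that this rule selects is not reported here. Summed levels were not tested.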

Additional observations from a re-analysis of the deposited data

Results flagged for a closer look

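Some values lay apart from the other 3 libraries of their age by Dixon's criterion at its 95% level, which chance meets in about 1 in 20 groups; 4 of 42 groups met it. The total of 6m replicate 2 was about 573000 counts, against 819000 to 844000. The summed level of the Dcx partners in 24m replicate 2 was 2470 CPM, against 2750 to 2770 CPM. The summed level of the neural stem and cycling cell genes in 24m replicate 4 was 301 CPM, against 215 to 221 CPM. The summed level of the fibroblast and mural cell markers in 24m replicate 3 was 177 CPM, against 125 to 133 CPM. None of the 4 tested members and neither member sum met the criterion in either age.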

How the results depend on the processing

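Sox10 was called changed in all 19 alternatives, and its log2FC lay between 0.68 and 0.88. The count of changed members was 2 in place of 1, through Olig1, with DESeq2 on raw counts, RLE or upper quartile factors, no scaling beyond library size, no mitochondrially encoded genes, filterByExpr, a minimum on the total count in place of the mean, no filter and an adjusted p alone, and ranged from 1 to 2 when libraries were left out. Genes changed numbered 1359, but 834 with DESeq2 on raw counts and 819 with DESeq2 on quantile-normalized counts, and 989 to 1594 with a library left out. Changed genes of the other lists numbered 18, but 11 and 9 with those DESeq2 fits and 33 with an adjusted p alone, and 14 to 26 with a library left out. The causes were not tested.

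With library sizes alone the median log2FC of all genes was 0.102, and 1218 genes were higher and 223 lower, against 968 and 391. Relative to that median, Sox10 was at 0.78, Olig1 at 0.58 and Dlx1 at -0.09, the unadjusted Dlx1 value being 0.01. Dlx1 ranged from -0.27 to 0.02 with a library left out and was positive without 24m replicate 3 and, at 0.00 after rounding, without 6m replicate 4. It passed no test.

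The 24m/6m ratio of the immature neuron sum was 0.78 without 24m replicate 1 and 1.03 without 24m replicate 2, so its direction turned, and that of the oligodendrocyte lineage sum lay between 1.46 and 1.67. Replicate numbers did not pair the libraries: deviations of same-numbered libraries correlated at 0.06, -0.01, 0.01 and -0.16. With a replicate block, 1308 genes were changed, 18 of the other lists and 1 member, Sox10. The 6 members with a mean count of 5 or less had too few reads for the main test.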

Other observations

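The ratio of Olig1 to Olig2 reads in a library lay between 5.06 and 9.2 at 6m and was 15.8, 7.29, 6.15 and 5.53 in 24m replicates 1 to 4. The high value rests on 5 Olig2 reads beside 79 Olig1 reads in 24m replicate 1, which also had the highest Dlx1 level of the 8 libraries, 32 CPM. That library was at 38.4 on the second principal component of log2 CPM, against -17.5 to 7.48 for the other libraries. Olig2 had a log2FC of 0.44 with all libraries, 0.64 without 24m replicate 1, 0.74 without 6m replicate 4 and 0.26 without 6m replicate 3, the last of these being the lowest and 0.74 the highest over all alternatives. It did not pass the test in any of them (edgeR or DESeq2 adjusted p from 0.123 to 0.677).

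Mitochondrially encoded RNA also differed between the ages. It summed to 106000, 105000, 114000 and 89200 CPM in 6m replicates 1 to 4 and to 65200, 81100, 75300 and 86100 CPM in 24m replicates 1 to 4, without overlap. With these genes left out of the fit, the log2FC was 0.78 for Sox10 and 0.59 for Olig1.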
